A study of Rattus norvegicus with 6 samples.

Results

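The genes described here are 33 enzymes of amino acid and sugar metabolism that mark the proximal tubule, the first segment of the nephron, in the renal cortex of rats given o-anisidine hydrochloride or water. They were chosen by name as a list of gluconeogenic, fructose, glycine and arginine, tyrosine and peptidase genes. Of the 33, 32 had at least 1 probe on the array that matched their RefSeq symbol or a synonym, and all 32 were among the 31087 genes tested. A gene here is a RefSeq symbol or, for probes with none, the name on the array. Gldc, the glycine-cleaving decarboxylase, had no matched probe and was not analysed here. G6pc is listed in the current table as G6pc1.

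The treated group was 3 male Sprague-Dawley (Crl:CD(SD)) rats dosed with o-anisidine hydrochloride, an aromatic amine salt, at 700 mg/kg/day over 4 weeks. The control group (labelled VC) was 3 male rats of that strain administered water over the same time. All were purchased at an age of 5 weeks and ate a basal diet. Each rat gave 1 single-colour array of total RNA from renal cortex, which holds all cell types of that tissue, so fewer cells of a type and less RNA per cell cannot be told apart.

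The proximal tubule takes back filtered sugars, amino acids and peptides, and it also makes and breaks down many of them. It releases glucose made from lactate, glutamine and glycerol, takes up fructose and inositol, makes arginine from citrulline and guanidinoacetate for creatine, breaks down tyrosine, tryptophan and hydroxyproline, and carries peptidases on its brush border that cut filtered peptides and glutathione conjugates. Several of these enzymes are shared with liver.

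The label was checked against markers. All 10 proximal tubule markers, among them the endocytic receptors Lrp2 and Cubn, the phosphate transporter Slc34a1 and the glucose transporter Slc5a2, were well above background on all 6 arrays, with a median log2 change of 0.06 and none past the threshold. Of 7 hepatocyte markers on the array, 6 (Alb, Apoa1, Ttr, Serpina1, Cps1 and Tat) did not reach the level kept here, well above background on all 3 arrays of a group. The remaining marker, Apoc3, went the other way and was well above background on all 6 arrays. Its log2 signals were 2.42, 2.52 and 2.70 after o-anisidine, against 2.53, 2.95 and 2.89 in controls. All 32 measured members were well above background on all 6 arrays, and all their values lay above the 75th percentile of array signal, the zero point of the log2 scale used below.

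As background for the transcription of such genes, the RefSeq promoter windows (GRCr8, 250 bases before to 50 after the start) of 30 members were searched on both strands for GTTAAT, a half-site of HNF1 factors, and CAAAGTC, part of a site of HNF4 factors. These are transcription factors of proximal tubule and liver. GTTAAT or its complement stood in 5 of 32 windows of these members (15.6%; Ddc has 3 windows), against 7.45% of all 33469 windows, and CAAAGTC or its complement in 4 of 32 (12.5%), against 4.61%. The members were Anpep, G6pc, Hpd, Miox and Prodh2 for the first and Agxt2, Dao, Hao2 and Kmo for the second. A match describes the letters only, and 3 windows are shown, for the member with 2 HNF1 matches, for the gluconeogenic member with 1, and for Acy3, the member with the smallest p, which has none. Capitals mark the matches, and the windows are chr1:94880837-94881136 on the plus strand (Prodh2), chr10:86807409-86807708 on the plus strand (G6pc) and chr1:210709087-210709386 on the plus strand (Acy3), written 5′ to 3′.
Prodh2: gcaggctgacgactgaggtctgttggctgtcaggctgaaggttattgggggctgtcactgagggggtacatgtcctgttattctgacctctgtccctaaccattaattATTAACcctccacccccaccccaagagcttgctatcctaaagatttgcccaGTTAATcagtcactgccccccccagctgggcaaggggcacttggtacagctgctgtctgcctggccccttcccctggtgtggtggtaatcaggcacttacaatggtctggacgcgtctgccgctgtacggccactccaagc
G6pc: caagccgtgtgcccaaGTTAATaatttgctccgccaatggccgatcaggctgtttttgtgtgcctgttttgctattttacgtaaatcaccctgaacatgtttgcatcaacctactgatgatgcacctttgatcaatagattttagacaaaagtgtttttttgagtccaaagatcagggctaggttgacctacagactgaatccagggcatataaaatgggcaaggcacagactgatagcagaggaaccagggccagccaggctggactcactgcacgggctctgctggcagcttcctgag
Acy3: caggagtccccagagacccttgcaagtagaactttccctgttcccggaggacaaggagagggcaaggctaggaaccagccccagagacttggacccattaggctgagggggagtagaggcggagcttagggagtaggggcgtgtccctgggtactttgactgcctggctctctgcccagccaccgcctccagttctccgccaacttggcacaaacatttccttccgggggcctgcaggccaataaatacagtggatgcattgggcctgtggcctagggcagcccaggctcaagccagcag

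Each array had 41670 to 43630 of its 61657 probes well above background and 0 saturated spots. With 3 arrays a group, their number limits the precision of every value. All 3 control arrays and o-anisidine array 3 shared 1 slide, while o-anisidine arrays 1 and 2 were on the other slide, so values within the shared slide compare 1 treated with 3 control arrays. Marker lists of other states had median shifts that differed between the groups on the same arrays. Taken as log2 differences from the mean of the controls, the median shift of 10 genes of injured tubule was 1.58, 0.17 and 1.18 on o-anisidine arrays 1, 2 and 3 (-0.15 to 0.10 on the controls), 1.5, 0.99 and 1.82 for 6 genes of dividing cells (-0.25 to 0.15) and 2.04, 2.04 and 1.87 for 8 genes of red cell precursors (-0.06 to -0.01). For collecting duct genes it was -0.40, -0.21 and -0.15, against -0.11 to 0.06 on the controls. The summed signal of the injured tubule list was 44.3 to 137 times the 75th percentile in the o-anisidine group and 31.7 to 33.6 times in the control group. By limma, 4 of 8 red cell precursor genes had an adjusted p under 0.05, and no gene of the other 3 lists did. At an unadjusted p under 0.05, 3 of 10 injured tubule and 6 of 6 dividing cell genes were higher, against 6.36% of all genes. Within the injured tubule list, Krt8, Krt18, Vim and Cd44 had log2 changes of only 0.19, 0.17, -0.05 and 0.07. The part of these lists in the values below was not tested.

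After 4 weeks of o-anisidine the enzymes of this list had signals close to those of the water group. None of the 32 had an adjusted p under 0.05, the threshold used throughout (limma with Benjamini-Hochberg adjustment over 31087 genes): 0 were higher and 0 lower, against 0.0354% and 0.0257% of all genes. At an unadjusted p under 0.05, Acy3, Asl and Fah were higher (3 of 32, 9.38%; 6.36% of all genes) and Tkfc was lower (1 of 32, 3.12%; 5.14% of all genes). The first count was 1 without o-anisidine 1, o-anisidine 2 or control 1, and the second was 0 without o-anisidine 1, control 2 or control 3. Fewer arrays lower the power for every gene, and the share of all genes in those fits is not given. The o-anisidine values all lay above the control values for 4 members, those 3 and Cndp2 (12.5%; 9.55% of all genes), and all below for Tkfc alone (3.12%; 8.88% of all genes). These shares are near the background.

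The median log2 change of the 32 members was 0.03 (-0.06 with quantile normalization between arrays), beside 0.00 over all genes tested. Of the 32, 18 had a fitted change above 0 and 14 below. In 29 members the absolute log2 change was under 0.3. In the main fit, which leaves slide out, the 95% confidence interval lay within a doubling and a halving (log2 -1 to 1) for 30 of 32 members. The exceptions were G6pc and Anpep, and for 25 of 32 it lay within 1.5-fold either way. Over all genes tested these shares were 90.9% and 71.6%. With slide as a block some SEs were larger, such as 0.42 for Gatm and 0.40 for Bhmt (0.27 and 0.28 in the main fit). The intervals of that setting are not given. The fitted change was larger than the pooled replicate SD in 19 of 32 members and smaller in 13. It was smaller in 18280 of all 31087 genes tested, so members exceeded their SD more often than genes at large, which include entries without a symbol. The median absolute log2 change was 0.15 over the members, beside 0.11 over all genes tested. These are descriptions and not tests.

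**Figure D1:**
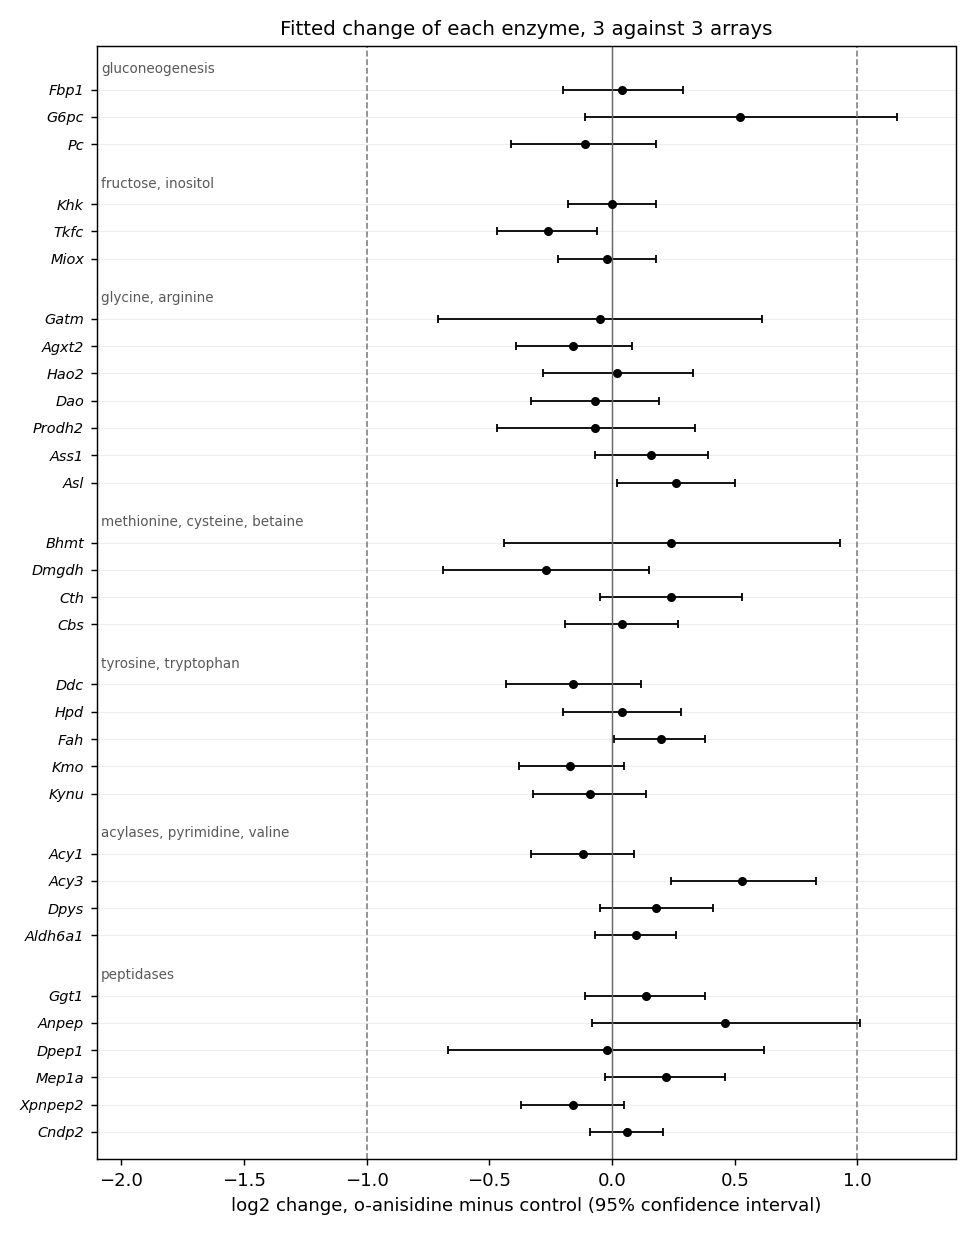
Fitted log2 change (o-anisidine minus control, 3 arrays each) of the 32 measured members by role, with 95% confidence intervals; dashed lines mark a doubling and a halving. The intervals of Acy3, Asl and Fah lie above 0 and that of Tkfc below 0, before any adjustment for the number of genes tested, and those of G6pc and Anpep reach past a doubling.

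The 3 gluconeogenic members had a median log2 change of 0.04. Fbp1, fructose-1,6-bisphosphatase, had log2 signals of 9.18, 9.35 and 9.02 on o-anisidine arrays 1, 2 and 3, against 9.10, 9.15 and 9.18 on control arrays 1, 2 and 3. The control values lie inside the treated range, and the log2 change was 0.04 (SE 0.10, adjusted p = 0.901 by limma). Its interval of -0.20 to 0.29 holds no change beyond 1.22-fold. Pc, pyruvate carboxylase, which supplies oxaloacetate, had 7.24, 7.36 and 7.44, against 7.25, 7.48 and 7.65 in controls, with a log2 change of -0.11 (SE 0.12).

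G6pc, the catalytic subunit of glucose-6-phosphatase that releases free glucose, had 7.65, 7.71 and 7.36 on the o-anisidine arrays, against 6.51, 7.12 and 7.52 on the controls. The treated arrays lie close together, and the controls are spread more widely (SD 0.51, beside 0.18 in the treated group), with control 3 above o-anisidine 3. The log2 change was 0.52, or 1.43-fold (SE 0.26, 95% interval -0.11 to 1.16, adjusted p = 0.501), and without control 1 it was 0.25. Its other probe gave 0.53 (SE 0.26). Of 9 other genes of the route, 6 had a change above 0 and 3 below, and none passed the threshold over all genes. At an unadjusted p under 0.05, 0 were higher and 0 lower (6.36% and 5.14% of all genes). Pck2, the mitochondrial phosphoenolpyruvate carboxykinase, and Mdh2, the mitochondrial malate dehydrogenase, had the smallest p, with log2 changes of 0.15 (SE 0.08) and 0.13 (SE 0.07), and only the groups of Mdh2 did not overlap.

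For the 3 enzymes of fructose and inositol the median log2 change was -0.02. Khk, ketohexokinase, which phosphorylates fructose, had 7.84, 7.90 and 7.99 in the o-anisidine group, against 7.86, 7.93 and 7.94 in the control group, a log2 change of 0.00 (SE 0.07, interval -0.18 to 0.18). Tkfc, triokinase, which phosphorylates the glyceraldehyde made from fructose, had 2.59, 2.79 and 2.66, against 2.87, 2.93 and 3.01. Every treated value of Tkfc lies below every control value, and the log2 change was -0.26, or 0.834-fold (SE 0.08, interval -0.47 to -0.06, unadjusted p = 0.020, adjusted p = 0.356 by limma). Within the shared slide it was -0.28, and over the 16 alternative settings the adjusted p lay between 0.183 and 0.592.

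Miox, myo-inositol oxygenase, which opens the inositol ring and is found mainly in kidney, had 9.37, 9.38 and 9.19 on the o-anisidine arrays, against 9.32, 9.31 and 9.38 on the controls, a log2 change of -0.02 (SE 0.08). Its dimmer probe did not give that value. There the signals were 6.52, 6.55 and 6.36 after o-anisidine, against 6.79, 6.89 and 6.89 in controls, with no overlap and a log2 change of -0.38 (SE 0.08, unadjusted p = 0.00351 by limma over all kept probes). Of the 12 members with 2 kept probes, Miox had the widest gap between probes (0.36), the median gap being 0.06. Khk also differed, with -0.19 (SE 0.09) on its dimmer probe, and in the other 11 both probes had the same sign. In the neighbouring list of 8 genes of fructose, polyol and glucuronate metabolism, 3 were above 0 and 5 below, with none past the threshold. Dcxr, the xylulose reductase of the glucuronate route that follows Miox, had a log2 change of 0.23 (adjusted p = 0.371, SE 0.08) without overlap between the groups, and Cryl1, gulonate dehydrogenase of that route, had 0.20 (SE 0.12).

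**Figure D2:**
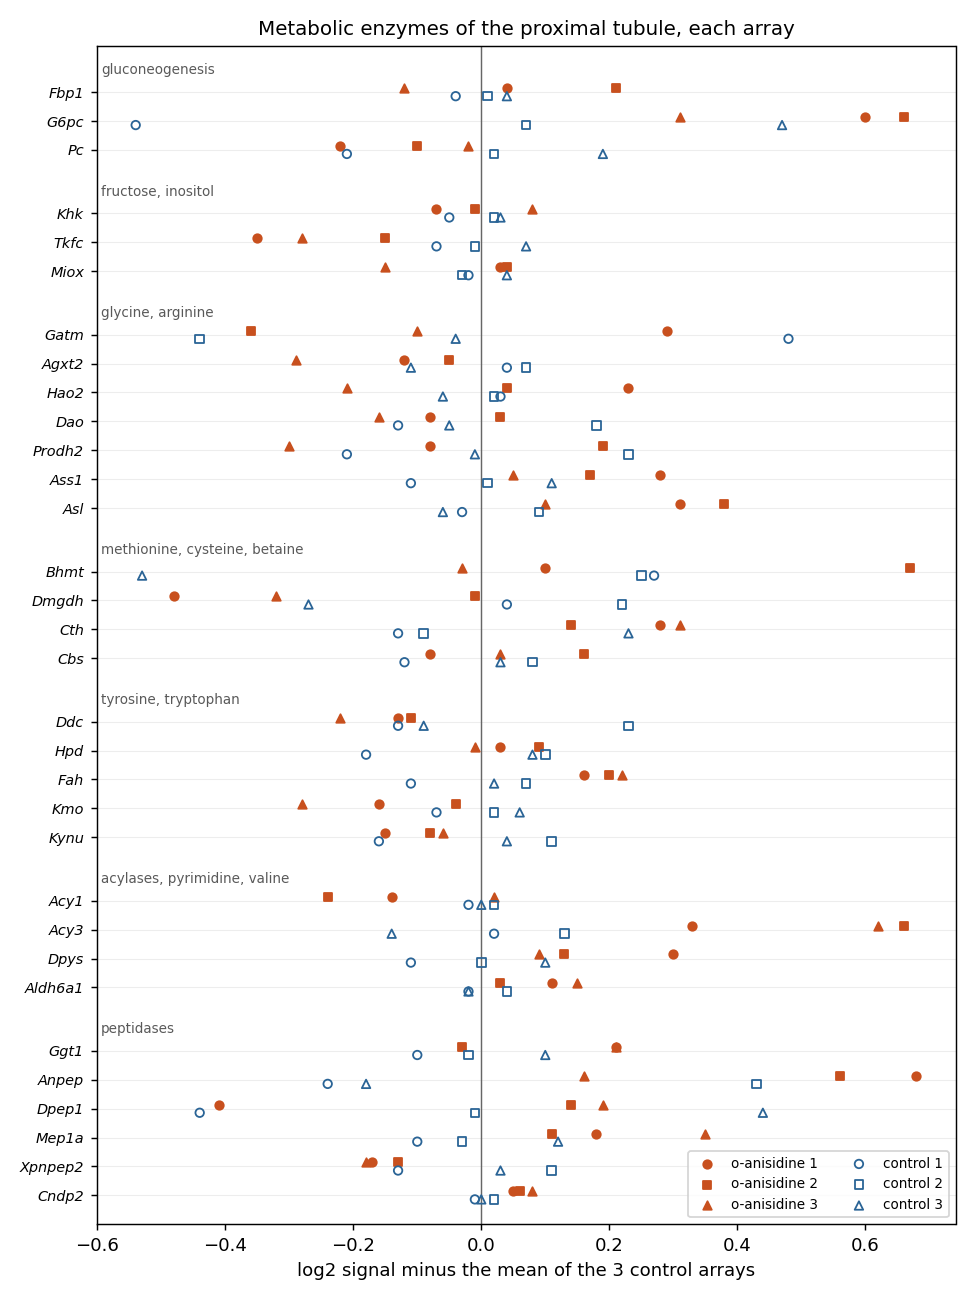
Log2 signal of each of the 32 measured members on each array, minus the mean of the 3 control arrays (filled, o-anisidine; open, control; symbols give the array number). The groups separate for Acy3, Asl, Fah and Cndp2 (treated higher) and Tkfc (treated lower), and mix for the others.

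For the 7 measured enzymes of glycine and arginine metabolism the median log2 change was -0.05. Ass1, argininosuccinate synthase, had 6.05, 5.94 and 5.82 in the o-anisidine group, against 5.66, 5.78 and 5.88 in the control group, with a log2 change of 0.16 (adjusted p = 0.566, SE 0.10). Asl, argininosuccinate lyase, takes the next step to arginine. It had 5.28, 5.35 and 5.07 on the treated arrays, against 4.94, 5.06 and 4.91 on the controls.

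The Asl groups did not overlap, though o-anisidine 3 and control 2 nearly meet. The log2 change was 0.26, or 1.2-fold (SE 0.10, interval 0.02 to 0.50, unadjusted p = 0.0397, adjusted p = 0.414 by limma), and 0.20 (SE 0.10) on its other probe. Within the shared slide it was 0.09.

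Gatm, glycine amidinotransferase, which makes guanidinoacetate from arginine and glycine, varied more between rats than between groups. Its values were 5.78, 5.13 and 5.39 after o-anisidine, against 5.97, 5.05 and 5.45 in controls (log2 change -0.05, SE 0.27, interval -0.71 to 0.61). Agxt2, the mitochondrial aminotransferase of glyoxylate and dimethylarginine, had 6.48, 6.55 and 6.31, against 6.64, 6.67 and 6.49 in controls, a log2 change of -0.16 (SE 0.10). The treated arrays of Agxt2 lie low, though o-anisidine 2 lies above control 3.

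Hao2, a peroxisomal oxidase of hydroxy acids, had a log2 change of 0.02 (SE 0.12), with values of 7.24 to 7.68 in the o-anisidine group and 7.39 to 7.48 in the control group. Dao, D-amino acid oxidase, and Prodh2, hydroxyproline dehydrogenase, had log2 changes of -0.07 each (SE 0.11 and 0.17). On o-anisidine 3, the treated array on the control slide, Agxt2, Hao2, Dao and Prodh2 were all below the lowest control, at 6.31, 7.24, 5.39 and 4.82. Their within-slide log2 changes were -0.29, -0.21, -0.16 and -0.31, and none had an adjusted p under the threshold there or with slide as a block.

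Of 15 measured other genes of glycine, glyoxylate, choline and arginine metabolism, 10 were above 0 and 5 below, and none passed the threshold over all genes. At an unadjusted p under 0.05, 2 were higher and 1 lower (6.36% and 5.14% of all genes). Pipox, the peroxisomal oxidase of pipecolate and sarcosine, had -2.25, -2.55 and -1.65 on the o-anisidine arrays, against -1.0, -1.42 and -0.59 on the controls. Its groups did not overlap, and the log2 change was -1.14 (SE 0.30, interval -1.86 to -0.42, adjusted p = 0.263 by limma). The second probe gave -1.30 (SE 0.32), and the within-slide value was -0.64. Gnmt, glycine N-methyltransferase, had 0.28 (SE 0.10, adjusted p = 0.406).

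The 4 enzymes of methionine, cysteine and betaine gave a median log2 change of 0.14, 0.00 within the shared slide, 0.01 without o-anisidine 2 and 0.02 without control 3. Bhmt, which remethylates homocysteine from betaine, had 6.49, 7.06 and 6.36 in the o-anisidine group, against 6.66, 6.64 and 5.86 in the control group. The groups overlap, and the log2 change of 0.24 (SE 0.28, interval -0.44 to 0.93) had the widest pooled replicate SD of the list, 0.42. Dmgdh, dimethylglycine dehydrogenase, the next enzyme of betaine breakdown, had 1.27, 1.74 and 1.43, against 1.79, 1.97 and 1.48 in controls, a log2 change of -0.27 (SE 0.17).

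Cbs, cystathionine beta-synthase, had a log2 change of 0.04 (SE 0.09), with values of 4.75 to 4.99 after o-anisidine and 4.71 to 4.91 in controls. Cth, cystathionine gamma-lyase, which releases cysteine, had 2.49, 2.35 and 2.52, against 2.08, 2.12 and 2.44. Control 3 lies inside the treated range, and the log2 change was 0.24 (SE 0.12, interval -0.05 to 0.53, adjusted p = 0.497). Among 7 measured other genes of these routes, Cdo1, cysteine dioxygenase, had a log2 change of 0.65 (adjusted p = 0.428, SE 0.26), its groups not overlapping, and Mtr, methionine synthase, had -0.12 (SE 0.09).

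For the 5 enzymes of tyrosine and tryptophan breakdown the median log2 change was -0.09. Hpd and Fah are the second and last steps of tyrosine breakdown. Hpd, 4-hydroxyphenylpyruvate dioxygenase, had 5.77, 5.83 and 5.73 in the o-anisidine group, against 5.56, 5.84 and 5.82 in the control group, a log2 change of 0.04 (SE 0.10). Fah, fumarylacetoacetase, had 4.94, 4.98 and 5.0, against 4.67, 4.85 and 4.80. Every treated value of Fah lies above every control value. Its log2 change was 0.20, or 1.15-fold (SE 0.08, interval 0.01 to 0.38, unadjusted p = 0.041, adjusted p = 0.417 by limma), and 0.22 within the shared slide.

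Ddc, aromatic amino acid decarboxylase, which makes dopamine in proximal tubule, had 6.01, 6.03 and 5.92 after o-anisidine, against 6.01, 6.37 and 6.05 in controls (log2 change -0.16, SE 0.11). The difference rests on control 2: without it the value was -0.05. Kmo, kynurenine 3-monooxygenase, had 2.53, 2.65 and 2.41, against 2.62, 2.71 and 2.75, a log2 change of -0.17 (SE 0.09). Kynu, kynureninase, the following step of tryptophan breakdown, had -0.09 (SE 0.09), with values of 3.82 to 3.91 in the o-anisidine group and 3.81 to 4.08 in the control group.

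Of 12 measured other genes of these routes, 7 were above 0 and 5 below, and none passed the threshold. Qprt, quinolinate phosphoribosyltransferase of the route from tryptophan to NAD, had a log2 change of -0.28 (adjusted p = 0.394, SE 0.10).

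The 4 acylases and enzymes of pyrimidine and valine breakdown gave a median log2 change of 0.14. On every o-anisidine array their median shift (0.20, 0.08 and 0.12) was above that on every control array (-0.02, 0.03 and -0.01). Acy3, aminoacylase 3, which removes acetyl groups from aromatic amino acids and from mercapturates, the acetylated cysteine conjugates of foreign compounds, had the smallest p of all members. Its log2 signals were 8.05, 8.38 and 8.34 on the o-anisidine arrays, against 7.74, 7.85 and 7.58 on the controls. The groups did not overlap. The log2 change was 0.53, or 1.45-fold (SE 0.12, interval 0.24 to 0.83, unadjusted p = 0.00445, adjusted p = 0.211 by limma). Within the shared slide it was 0.62, with a replicate left out it was 0.46 to 0.64, and over the 16 alternative settings the adjusted p lay between 0.114 and 0.429. Acy3 had 1 probe.

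Acy1, aminoacylase 1, which removes acetyl groups from aliphatic amino acids, had 4.74, 4.64 and 4.90, against 4.86, 4.90 and 4.88 in controls, a log2 change of -0.12 (SE 0.09). Dpys, dihydropyrimidinase, had 0.18 (SE 0.09), with values of 2.08 to 2.29 after o-anisidine and 1.88 to 2.09 in controls. Aldh6a1, methylmalonate semialdehyde dehydrogenase of valine and thymine breakdown, had 0.10 (SE 0.07). Among 8 measured other genes of these routes, 5 were above 0 and 3 below. Upb1, beta-ureidopropionase, the step after Dpys, had a log2 change of 0.30 (adjusted p = 0.402, SE 0.11), and Hibch, a hydrolase of valine breakdown, had 0.23 (SE 0.08, adjusted p = 0.371), both without overlap between the groups.

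**Figure D3:**
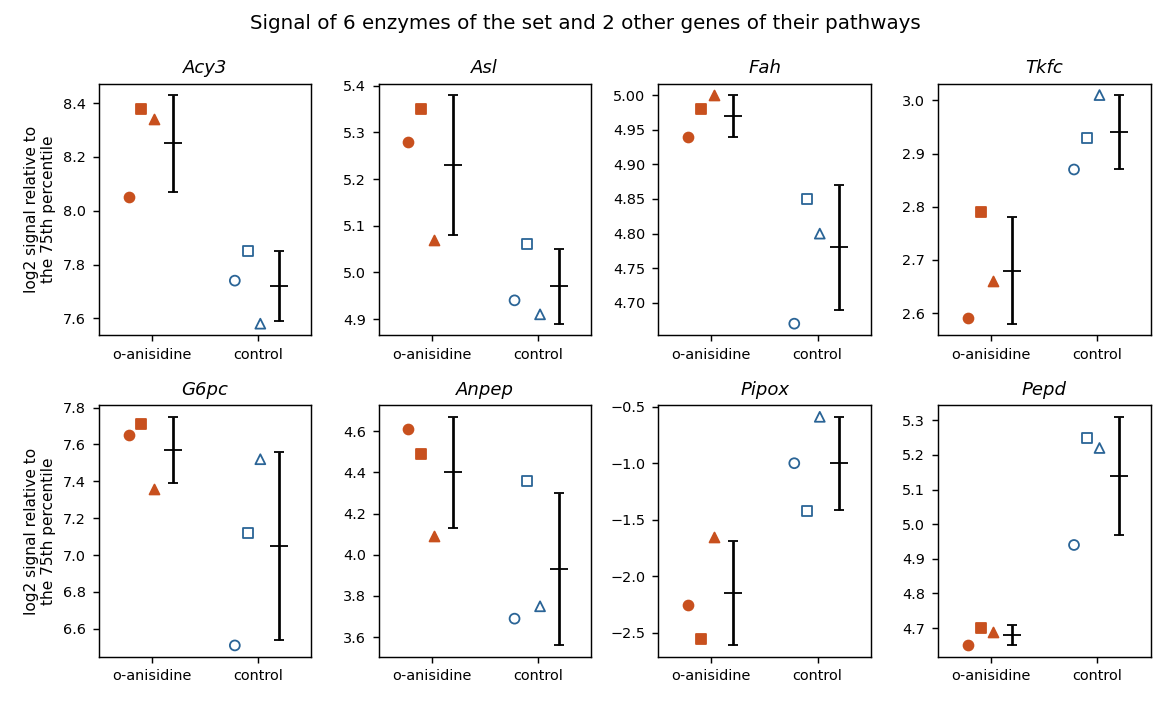
Log2 signal relative to the array's 75th percentile for 6 members (Acy3, Asl, Fah, Tkfc, G6pc, Anpep) and 2 other genes of the pathways (Pipox, Pepd), with o-anisidine left and control right in each panel, symbols giving the array number (circle 1, square 2, triangle 3) and bars the mean ± SD (n = 3). Axes differ between panels and do not start at 0. The groups mix for G6pc and Anpep and separate for the other genes shown.

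The 6 peptidases had a median log2 change of 0.10, 0.18 within the shared slide, with 4 above 0 and 2 below. Their median shift was 0.11, 0.09 and 0.18 on o-anisidine arrays 1, 2 and 3, against -0.12, 0.00 and 0.07 on the controls. Ggt1, gamma-glutamyltransferase of the brush border, which starts the breakdown of glutathione and its conjugates, had 5.83, 5.59 and 5.83 in the o-anisidine group, against 5.52, 5.60 and 5.72 in the control group, a log2 change of 0.14 (SE 0.10). Dpep1, the dipeptidase that follows it, had 3.46, 4.01 and 4.06, against 3.43, 3.86 and 4.31, a log2 change of -0.02 (SE 0.26, interval -0.67 to 0.62). Both sets of values overlap, and Dpep1 varies more within each group than between them.

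Anpep, aminopeptidase N, had 4.61, 4.49 and 4.09 after o-anisidine, against 3.69, 4.36 and 3.75 in controls. Control 2 lies above o-anisidine 3, and the log2 change was 0.46, or 1.38-fold (SE 0.22, interval -0.08 to 1.01, adjusted p = 0.487). Within the shared slide it was 0.16. Mep1a, a subunit of the metalloprotease meprin, had 3.77, 3.70 and 3.94, against 3.49, 3.56 and 3.71, a log2 change of 0.22 (SE 0.10), and 0.11 (SE 0.08) on its other probe.

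Xpnpep2, membrane aminopeptidase P, had 0.86, 0.90 and 0.85 on the o-anisidine arrays, against 0.90, 1.14 and 1.06 on the controls, a log2 change of -0.16 (SE 0.09). Cndp2, the cytosolic dipeptidase, had 5.51, 5.52 and 5.54, against 5.45, 5.48 and 5.46. The groups of Cndp2 did not overlap, but its log2 change was 0.06 (SE 0.06, interval -0.09 to 0.21, adjusted p = 0.732), so that the separation rests on a small spread (SD 0.02 in each group).

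Of 14 other peptidases, 5 were above 0 and 9 below, and none passed the threshold over all genes. At an unadjusted p under 0.05, 0 were higher and 2 lower (6.36% and 5.14% of all genes). Pepd, the prolidase that splits dipeptides ending in proline, had 4.65, 4.70 and 4.69 on the o-anisidine arrays, against 4.94, 5.25 and 5.22 on the controls, a log2 change of -0.46 (SE 0.10, interval -0.71 to -0.21, adjusted p = 0.197 by limma). Its other probe gave -0.04 (SE 0.08), so the probes disagree. Across the 73 measured other genes of all these routes the median log2 change was 0.02. Of these genes, 7 were higher and 4 lower at an unadjusted p under 0.05 (6.36% and 5.14% of all genes), and 0 passed the threshold.

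As a median over the 32 members, the shift from the mean control level came to 0.04, 0.05 and 0.00 on o-anisidine arrays 1, 2 and 3. On the controls it was -0.10, 0.03 and 0.03, with control 1 the lowest of the 6 arrays. Over all genes tested the range was narrower, with 0.01, 0.03 and -0.02 on the o-anisidine arrays and -0.01, 0.01 and 0.00 on the controls. The glycine and arginine members alone had a median shift of 0.24, 0.05 and -0.16 on those o-anisidine arrays, against -0.03, 0.07 and -0.05 on the controls, so that o-anisidine 1 was highest and o-anisidine 3 lowest of the 6 arrays. The median pooled replicate SD was 0.12 log2 units over the members, beside 0.15 over all genes tested, and it ranged from 0.02 (Cndp2) to 0.42 (Bhmt). Bhmt, Gatm, Dpep1, G6pc and Anpep had the widest spread, each over 0.3. Within the shared slide the log2 changes lay between -0.32 (Dmgdh) and 0.62 (Acy3), and 26 of 32 had the sign of the pooled value. The arrays of the shared slide also enter the pooled value, so shared signs are partly built in.

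**Figure D4:**
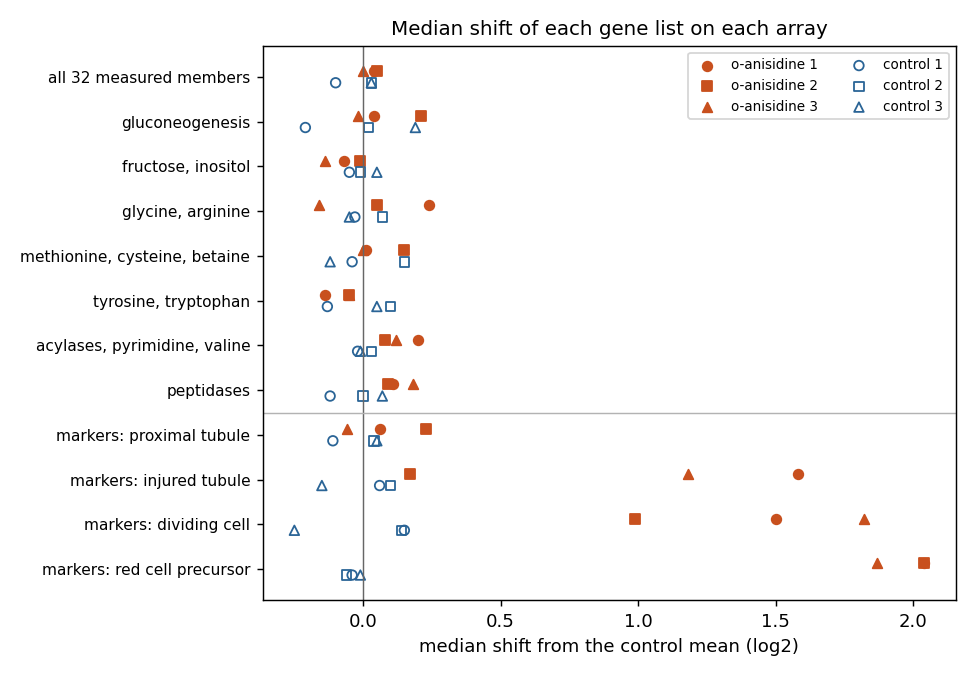
Median shift from the control mean (log2) on each array for all 32 measured members, for each role group, and, below the line, for marker lists (filled, o-anisidine; open, control; o-anisidine 1 and 2 coincide at 2.04 for red cell precursors). The members stay between -0.10 and 0.05 on all 6 arrays, while the lists of injured tubule, dividing cells and red cell precursors reach 1.58, 1.82 and 2.04 on o-anisidine arrays.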

How the data were processed

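Total RNA of renal cortex from 6 rats was labelled with Cy3 and hybridised to 1 array each, per the labels' protocols. The deposited scanner files give the intensity of every spot, read with Agilent Feature Extraction 10.7.1.1, per the file headers (10.7 in the submitters' processing notes), with background subtracted and no scaling between arrays. Other columns hold the median signal and median background of each spot, from which the normexp alternative started. Flags of 0 or 1 mark control, outlier and saturated spots and spots well above background, per the file headers. The array design used rn4, per the file headers. The authors' deposited value table holds intensity values that matched the processed signal divided by each array's 75th percentile (r = 1.00), linear, uncentred, with column medians of 0.104 to 0.108. Each of its columns matched another replicate of the same group. Replicate numbers here follow the scanner files.

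Each processed signal was divided by its array's 75th percentile over 61657 non-control probes, then put on a log2 scale. A probe was kept if it carried no outlier flag (16 did) and if every array of 1 group or the other had it well above background. Accessions were matched to GRCr8 RefSeq (27460 probes, 15284 symbols), and a gene was its brightest kept probe. The 34197 probes with no symbol were grouped by their name on the array and, where kept, counted as genes. Shares of all genes therefore include entries without a symbol, while every member has one. Groups were compared with limma 3.58.1 (lmFit, eBayes, two-sided, no covariates; 4 residual and 2.11 prior degrees of freedom) and R 4.3.3, and p-values were adjusted by Benjamini-Hochberg across 31087 genes. The fit was also run on simulated data, drawn independently for each gene and array with no slide effect. That run does not cover the slide layout of these arrays. Array correlations were 0.992 to 0.9935 within o-anisidine, 0.9929 to 0.9945 within control and 0.9899 to 0.992 between groups. Over all genes, the deviations of same-numbered arrays were close to uncorrelated (r = 0.0201, 0.0773 and 0.0123). With so few arrays a group, this check cannot exclude a pairing by number, least of all one that moved few genes. The alternatives, 16 in all, changed the background correction, scaling, filter, probe choice, variance model, slide, replicate block, value table or arrays used.

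All 33 members were named, and in each list of other pathway genes the 2 with the smallest p, apart from some that are not reported here. Members, lists and role groups were chosen with earlier results of these data known. The labels do not give the route of dosing.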

Additional observations from a re-analysis of the deposited data

How the results depend on the processing

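No member was called under any of the 16 alternatives, and leaving out an array gave 0 higher and 0 lower each time. The alternatives are not independent of the main fit or of each other. The value table holds the same scaled signal, and slide as a block and within it gave the same log2 changes. Settings with fewer arrays or a block also have less power to call a gene. Over all genes, 11 higher and 8 lower calls became 67 and 17 with normexp, 91 and 29 with trend and robust estimation, 5 higher without the filter, 5 lower with all 6 arrays above background, 2 and 1 with slide as a block, 1 and 1 within the slide, and 1 and 0 with the replicate block, which changed no call of a member; leaving out an array gave 2 to 16 higher and 1 to 5 lower. Members at an unadjusted p under 0.05 were 6 higher and 2 lower with normexp, 1 higher with quantile normalization, 2 lower with the mean of probes, and 1 and 0 within the slide (1 to 4 and 0 to 2 with an array left out). Members whose groups did not overlap were 4 lower with normexp, 8 lower with quantile normalization and 2 lower with the mean of probes. Within the slide, where 1 treated array makes separation easy, they were 9 higher and 11 lower. With an array left out, which also makes separation easier, they were 4 to 10 higher and 1 to 6 lower. The shares of all genes at an unadjusted p or without overlap are not given for these settings. These counts of members therefore have no background to be read against.

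The median of all members was -0.06 with quantile normalization and 0.00 to 0.05 with an array left out. That of fructose and inositol enzymes was -0.09 with normexp, -0.14 with quantile normalization, -0.20 with the mean of probes and -0.14 with slide as a block or within it, and -0.05 to 0.00 with an array left out. With slide as a block or within it, the methionine group had 0.00 and the peptidases 0.18 (0.01 to 0.16 and 0.07 to 0.20 with an array left out). With an array left out, the gluconeogenic median was -0.04 to 0.12, glycine and arginine -0.07 to 0.05, tyrosine and tryptophan -0.17 to -0.03, and acylases 0.10 to 0.16.

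Log2 changes that turned sign were not all small beside those of the other members. With normexp they were -0.04 for Fbp1 and -0.01 for Cbs, with quantile normalization -0.10 for Fbp1, -0.14 for Khk and -0.08 for Hao2, and with the mean of probes -0.09 for Khk. With slide as a block or within it they were -0.12 for Fbp1, -0.21 for Hao2, -0.03 for Bhmt, -0.01 for Hpd, 0.02 for Acy1 and 0.20 for Dpep1. With an array left out, the range was -0.04 to 0.03 for Khk, -0.27 to 0.19 for Gatm, -0.02 to 0.10 for Cbs, -0.05 to 0.09 for Hpd, -0.14 to 0.02 for Dao, -0.19 to 0.05 for Prodh2, -0.05 to 0.04 for Miox, -0.08 to 0.14 for Hao2, -0.02 to 0.38 for Bhmt, -0.24 to 0.20 for Dpep1 and -0.04 to 0.12 for Fbp1. The cause was not tested, apart from the smaller number of arrays or genes that an alternative itself brings.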
